A study of Mus musculus with 6 samples.

Results

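The genes described here encode 8 enzymes of heme synthesis (Alas1, Alas2, Alad, Uros, Urod, Cpox, Ppox and Fech) and the transferrin receptor (Tfrc), which brings iron into the cell. They were chosen by name, as the probe sets whose annotated symbol is one of these 9. Each of the 9 had 1 probe set on the Affymetrix mouse Gene 1.0 ST array, and all 9 were among the 9925 genes tested. The samples were freshly isolated (resting) CD8+ T cells (CD8-TC) from the spleens of male ICR mice aged 6 weeks. There were 3 WT mice (labelled Runx3 +/+) and 3 mice without the transcription factor Runx3 (Runx3-/-), with 1 array for each mouse and no treatment. ICR is an outbred stock. WT cells were taken on anti-CD8 magnetic beads, whereas Runx3-/- cells were taken on the same beads and then sorted by FACS to remove dendritic cells carrying CD11c and CD8. Another label instead mentions sorting for every sample. If only Runx3-/- cells were sorted, the sort and the genotype cannot be told apart in these 6 arrays.

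Heme is built from glycine and succinyl-CoA along a chain of enzymes that begins in the mitochondrion, passes through the cytosol and returns to the mitochondrion, where iron is inserted. The entry step has a pair of isozymes. Alas1 serves all cells and is repressed by heme, and Alas2 serves red cell precursors, where large amounts of heme are needed for haemoglobin. The later enzymes are made in every cell and are raised further during red cell formation. Tfrc takes up transferrin-bound iron and is abundant on erythroblasts and on dividing lymphocytes.

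All values are RMA signals on the log2 scale, and differences are Runx3-/- minus WT. The array medians over all probe sets lay between 3.45 and 3.53, and a signal near them may lie close to background. Across genes, the correlation between arrays was at least 0.985 within a genotype and at most 0.971 between genotypes. The Runx3 probe set did not separate the genotypes (0.16 ± 0.16, SE, limma adjusted p = 0.559). No source used here says which part of the transcript it reads, so that it does not check the labels. Of 12 T cell markers tested, 4 were higher in Runx3-/- cells (Cd28 by 0.99, Cd247 by 0.61, Lat by 0.55 and Zap70 by 0.44) and 8 did not pass. The 8 included the defining markers Cd3d, Cd3e, Cd3g, Cd8a and Cd8b1, which were above the array median in all arrays.

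Of the 9 genes, 3 were lower in Runx3-/- CD8-TC (Alas2, Cpox and Fech), 0 were higher and 6 did not pass. Among all genes tested, 6.01% were lower and 5.63% were higher (limma, adjusted p under 0.05). At the thresholds of the methods, a change of at least 1.5-fold and a p under 0.05, the same 3 genes were lower and 0 were higher, against 4.96% and 3.12% of all genes (8.08% in either direction). The median difference of the 9 genes was -0.16, against 0.0062 over all genes tested. The WT and Runx3-/- arrays did not overlap in 4 genes that were lower and in 1 that was higher, against 16.2% and 17.4% of all genes. Without moderation of variances only Alas2 passed, and 182 genes passed in all against 1155. Arrays were also centred on T cell markers, by the median signal of their probe sets in each array. This is another measure than the median difference of the T cell markers tested, which was 0.20. With the centring, the median of all genes shifted to -0.24 and the calls to 1663 lower and 133 higher (92.6% lower). As deposited, the calls were 596 and 559 (51.6% lower). The genes of this set numbered 4 lower and 0 higher with that centring.

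**Figure D1:**
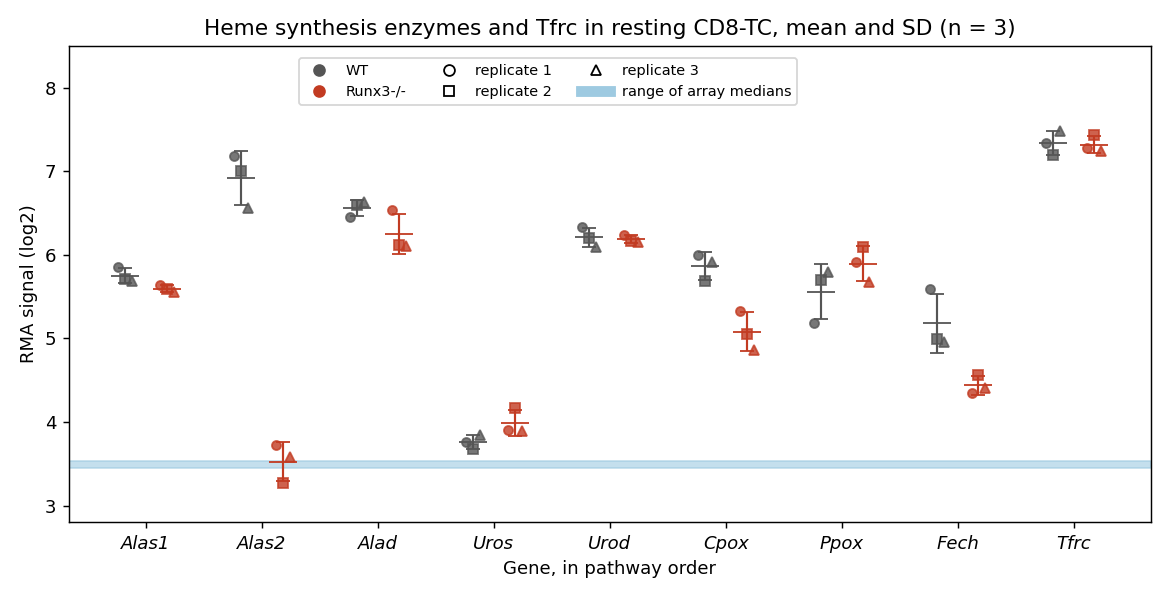
The 9 genes, as log2 RMA signals (vertical axis), in pathway order (horizontal axis), with WT mice as grey and Runx3-/- mice as red points, group means with SD bars (n = 3), and a blue band for the range of the array medians. Alas2 drops from a mean of 6.91 to 3.53, onto the band, whereas Tfrc stays near 7.3 in both genotypes.

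Alas2, the isozyme of the entry step in red cell precursors, showed the third largest fall of all 9925 genes. The WT signals were 7.19, 7.00 and 6.56, and those of Runx3-/- cells were 3.73, 3.26 and 3.58. Every WT array therefore read above every Runx3-/- array, and 1 Runx3-/- array read below its own array median. The mean was 6.91 ± 0.32 (SD, n = 3) in WT and 3.53 ± 0.24 in Runx3-/-. The fold was 10.5 (difference -3.39 ± 0.18, SE, limma adjusted p = 4.49e-05), and because the Runx3-/- signal lay at the array median it may be understated. Alas2 passed under all 17 alternatives, with differences from -3.64 to -3.25. In RNA from a mixed sample, fewer cells of a type and less RNA per cell cannot be told apart.

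Alas1, the isozyme that all cells use, read 5.85, 5.72 and 5.69 in WT mice, against 5.64, 5.60 and 5.56 without Runx3. The groups did not overlap, but their distance was small. The difference was -0.16 ± 0.09 (SE), with a 95% interval from -0.36 to 0.048, and did not pass (adjusted p = 0.298). The interval includes no change and leaves out a fall as large as that of Alas2. With arrays centred on T cell markers the Alas1 difference was -0.41 and did not pass (adjusted p = 0.0521).

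The promoter windows of both isozymes and of Cpox, from RefSeq on GRCm38.p6, are shown because Alas2 and Cpox fell and Alas1 did not pass. They hold the 250 bases before the annotated start, read along the strand of the gene, for Alas2 at chrX:150547167-150547416 (+), Cpox at chr16:58669958-58670207 (+) and Alas1 at chr9:106247955-106248204 (-). Capitals mark GATA words (AGATAA and, with another last base, AGATAG, besides TGATAA and, likewise, TGATAG, on either strand), which erythroid GATA factors are known to recognise.
Alas2: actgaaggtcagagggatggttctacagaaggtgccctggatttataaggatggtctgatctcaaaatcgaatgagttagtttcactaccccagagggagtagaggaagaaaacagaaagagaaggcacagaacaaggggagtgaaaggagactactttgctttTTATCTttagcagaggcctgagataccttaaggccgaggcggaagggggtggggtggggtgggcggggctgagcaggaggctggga
Cpox: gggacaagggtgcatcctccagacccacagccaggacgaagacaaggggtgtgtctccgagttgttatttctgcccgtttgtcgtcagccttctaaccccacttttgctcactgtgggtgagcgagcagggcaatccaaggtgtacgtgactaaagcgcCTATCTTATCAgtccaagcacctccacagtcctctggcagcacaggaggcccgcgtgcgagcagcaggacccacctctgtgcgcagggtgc
Alas1: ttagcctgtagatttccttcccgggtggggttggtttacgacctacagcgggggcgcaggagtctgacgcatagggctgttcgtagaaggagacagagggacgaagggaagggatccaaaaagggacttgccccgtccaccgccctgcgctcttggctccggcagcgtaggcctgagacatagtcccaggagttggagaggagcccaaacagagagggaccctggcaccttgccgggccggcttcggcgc
The Alas2 window held 1 GATA word, from 86 to 81 bases before the start. The Cpox window held 2, from 91 to 86 and from 86 to 81 bases before it, which share a base. Neither of the 2 Alas1 windows in the table held one. Among all 32851 windows, 26.5% held a GATA word. Of the other windows of these genes, only that of a second Uros start held any. The Alas2 window contained 4 CpG, the Cpox window 11 and the Alas1 windows 16 and 42, against a median of 6 over all windows. RUNX words, which are TGTGGT and, with another last base, TGTGGC, besides TGCGGT and, likewise, TGCGGC, were counted on either strand. They were in none of the Alas2 and Cpox windows, nor in those of Alad, Uros and Ppox. The second Alas1 window and the Urod window held 1 each and the first Tfrc window held 3, and 38% of all windows held at least 1. The windows of 8 of the 9 genes were searched, and that of Fech, which also fell, was not. CACCC, E-box (CACGTG) and GC box (GGGCGG) words were also counted on either strand. CACCC words were in the Alas2 window (3) and the Cpox window (4), and 52% of all windows held at least 1. Both Alas1 windows, the second Alad window and both Tfrc windows held them too. The Alas2 window held 1 GC box and no E-box, and the Cpox window neither, against 32.7% and 6.02% of all windows. A match is a description of letters and not of a bound site.

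None of the cytosolic enzymes measured (Alad, Uros and Urod) passed the test. Alad, which joins 2 molecules of aminolevulinate to porphobilinogen, read 6.45, 6.60 and 6.63 in WT mice, against 6.53, 6.11 and 6.11 without Runx3. Runx3-/- replicate 1 lay within the WT range and the other two below it. The difference was -0.31 ± 0.13 (SE) and did not pass (adjusted p = 0.176). Without Runx3-/- replicate 1 it was -0.45 and passed (adjusted p = 0.0462), and it also passed with arrays centred on T cell markers (-0.56, adjusted p = 0.0302). Uros, which closes the tetrapyrrole ring, read 3.76, 3.68 and 3.85 in WT mice, against 3.91, 4.17 and 3.89 without Runx3. All 6 values lay at most 0.64 above the array median, close to background. The Uros difference of 0.23 ± 0.11 did not pass (adjusted p = 0.21), although the groups did not overlap, and it was -0.020 with arrays centred on T cell markers. Urod, which trims the ring to coproporphyrinogen, read 6.33, 6.20 and 6.10 against 6.24, 6.16 and 6.15. The Runx3-/- values lay inside the WT range, and the difference of -0.024 had a 95% interval from -0.24 to 0.20 (adjusted p = 0.9).

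Of the mitochondrial enzymes after the cytosolic steps, Cpox and Fech fell and Ppox did not pass. Cpox, which oxidises coproporphyrinogen, read 6.00, 5.69 and 5.92 in WT mice, against 5.33, 5.05 and 4.86 without Runx3. The highest Runx3-/- array was below the lowest WT array, and the signal was 1.73-fold lower (difference -0.79 ± 0.14, SE, limma adjusted p = 0.0108). Ppox, which acts directly after Cpox, read 5.18, 5.70 and 5.79 in WT mice, against 5.92, 6.09 and 5.68 without Runx3. The groups overlapped, and the difference of 0.34 ± 0.18 did not pass (adjusted p = 0.254), with a 95% interval from -0.063 to 0.74. Fech, which inserts the iron, read 5.59, 4.99 and 4.96 in WT mice, against 4.35, 4.56 and 4.41 without Runx3. All Runx3-/- arrays read below all WT arrays, and WT replicate 1 stood above the other two. Fech was 1.67-fold lower (difference -0.74 ± 0.17, adjusted p = 0.028). It did not pass with the replicate number as a block (adjusted p = 0.0547) or without Runx3-/- replicate 1, 2 or 3 (adjusted p = 0.0752, 0.0601 and 0.0896), and its difference ranged from -0.99 to -0.54.

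**Figure D2:**
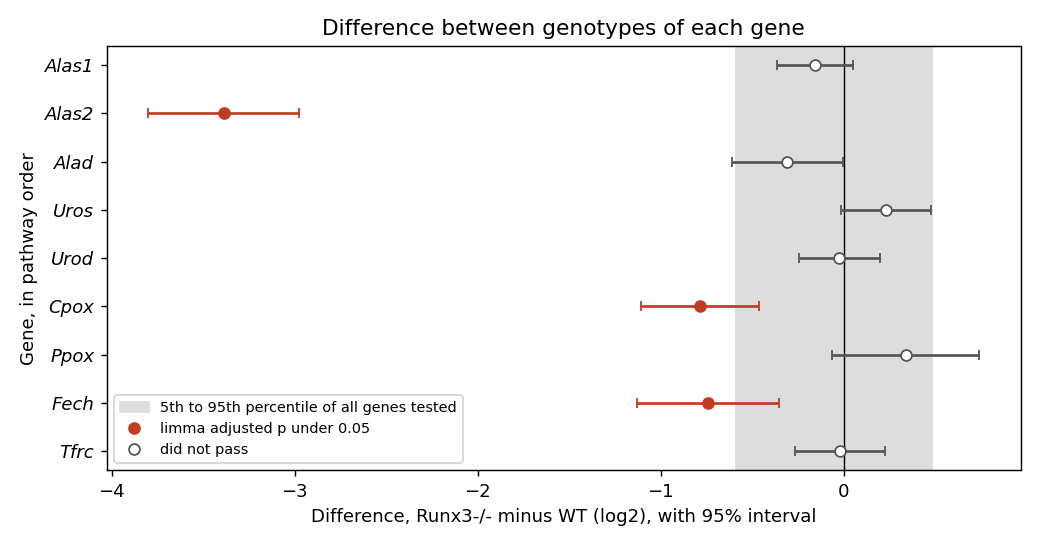
Difference between Runx3-/- and WT on the log2 scale (horizontal axis) of each of the 9 genes (vertical axis), with its 95% interval from limma and the range between the 5th and 95th percentiles of all genes tested in grey (-0.59 to 0.48). The point of Alas2 lies far to the left at -3.39, those of Cpox and Fech lie just outside the grey range, and the other 6, drawn open, did not pass.

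Tfrc did not separate the genotypes. It read 7.34, 7.20 and 7.48 in WT mice, against 7.28, 7.43 and 7.24 without Runx3, so that the groups overlapped fully. The mean was 7.34 ± 0.14 (SD, n = 3) in WT and 7.32 ± 0.10 in Runx3-/-. The difference was -0.020 (limma adjusted p = 0.926) and its 95% interval ran from -0.26 to 0.22, and its sign turned under 4 of 17 alternatives. A change of 1.5-fold in either direction lies outside this interval, which holds for the deposited scaling only. With arrays centred on T cell markers the Tfrc difference was -0.27 ± 0.17 (SE, limma adjusted p = 0.24), a wider range. Tfrc mRNA is stabilised by the iron regulatory proteins when iron is low. The genes of these proteins, Aco1 and Ireb2, named after their values were seen, gave -0.13 and 0.10 and did not pass (adjusted p = 0.5 and 0.58).

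The erythroid isozyme was then set against the steps that all cells use, through the log2 ratio of Alas2 to each other gene within an array. Only the change of this ratio between genotypes was read, since levels of different probe sets are not comparable. In 8 of 8 comparisons the ratio was lower in every Runx3-/- array than in every WT array. The 8 ratios share the same Alas2 values, so that they are not 8 separate results. Their direction was set by the fall of Alas2 (-3.39), next to which the largest other fall was that of Cpox (-0.79). Alas2 fell more than Alas1 by 3.23 ± 0.20 on the log2 scale (SE), or 9.39-fold. The excess was smallest against the other genes that fell, at 2.60 ± 0.26 for Cpox and 2.65 ± 0.24 for Fech. Against Tfrc it was 3.37 ± 0.31 and against Ppox 3.73 ± 0.43. Each had an exact permutation p of 0.1, two-sided, also after adjustment over the 8 pairs, which is the smallest that 3 against 3 arrays can give.

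Most genes of proteins that serve the mitochondrial steps did not pass. Of 20 such genes listed, 14 were tested, 2 fell, 0 rose and 12 did not pass, with a median difference of -0.14. Among all genes tested, 6.01% were lower and 5.63% were higher. The genotypes did not overlap in 4 of the 14 that were lower and in 2 that were higher, against 16.2% and 17.4% of all genes. The mitochondrial iron importer Slc25a37 (mitoferrin 1), which is used by erythroid cells, read 5.72, 5.15 and 5.25 in WT mice, against 4.62, 4.77 and 4.39 without Runx3. It fell by 0.78 ± 0.17 (SE, limma adjusted p = 0.0213). Its relative in other tissues, Slc25a28 (mitoferrin 2), gave 0.38 ± 0.12 and did not pass (adjusted p = 0.0856). The mitochondrial carrier Slc25a39 fell by 0.51 ± 0.13 (adjusted p = 0.0368). Tmem14c, which serves porphyrin transport in erythroid mitochondria, gave -0.52 ± 0.14 (adjusted p = 0.053), and the iron-sulphur cluster protein Glrx5 gave -0.36 (adjusted p = 0.1). The number that passed, in either direction, was 0 without Runx3-/- replicate 3 and 1 without WT replicate 1 or Runx3-/- replicate 2. It was 6 with arrays centred on T cell markers.

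Genes of heme breakdown and transport, and of iron handling, included large falls. Of 12 heme genes listed, 10 were tested, 5 fell, 0 rose and 5 did not pass, with a median difference of -0.21. For this list and the iron list below, the shares over all genes tested were 6.01% lower and 5.63% higher. Heme oxygenase Hmox1, which opens the heme ring, read 8.90, 8.80 and 9.07 in WT mice, against 4.58, 5.36 and 5.70 without Runx3, a difference of -3.71 ± 0.25 (SE, limma adjusted p = 0.000103). Hmox1 and the biliverdin reductases Blvrb (-1.34 ± 0.14, SE) and Blvra (-0.38 ± 0.09) take part in heme breakdown and fell, whereas Hmox2, the constitutive heme oxygenase, gave 0.028 and did not pass (adjusted p = 0.907). Blvra lies close to the threshold (limma adjusted p = 0.033). The heme-binding protein Hebp1 fell by 0.95 ± 0.09 and the lysosomal heme transporter Slc48a1 fell by 0.63 ± 0.08. Of 18 iron genes listed, 14 were tested, 7 fell and 0 rose, 7 missed the threshold, and the median difference was -0.28. Those that fell included the iron exporter Slc40a1 (-3.02 ± 0.32), which macrophages use to release iron, the haemochromatosis gene Hfe (-0.88 ± 0.11), the transferrin gene Trf (-2.66 ± 0.43), the ferritin light chain gene Ftl1 (-0.81 ± 0.14) and the ferritin receptor Ncoa4 (-0.49 ± 0.09). Hfe lay below the array median in all Runx3-/- arrays and entered the test through WT alone. Without WT replicate 1 the number of iron genes that passed, in either direction, was 4.

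**Figure D3:**
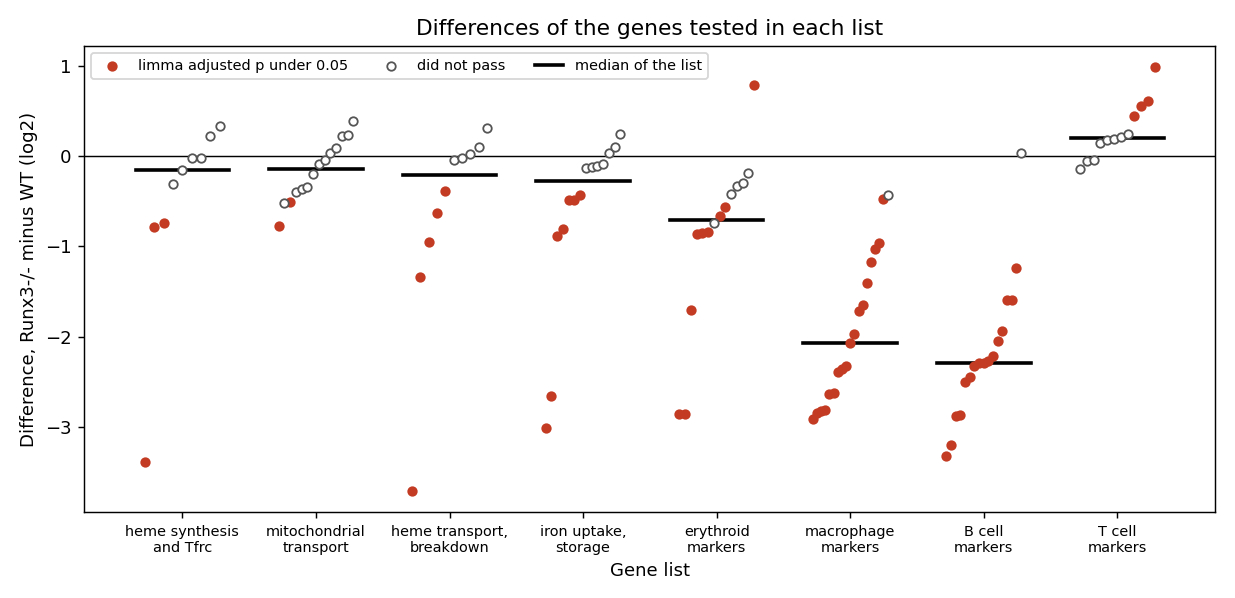
Difference between Runx3-/- and WT on the log2 scale (vertical axis) of every gene tested in 8 lists (horizontal axis), in red where it passed and open where it did not, with the median of each list as a black bar. The heme synthesis genes, with a median of -0.16, lie nearer to 0 than the macrophage and B cell markers, with medians of -2.07 and -2.29.

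Many erythroid, macrophage and B cell markers differed between the genotypes in the same arrays, whereas most dendritic and natural killer cell markers did not pass. Of 34 erythroid markers listed, which share no gene with the 9, 25 had a probe set of their own and 14 were tested. Of these, 8 were lower and 1 was higher, Gata1, with a median of -0.70, against 6.01% lower and 5.63% higher of all genes. In 9 of the 14 the signal lay below the array median in all Runx3-/- arrays, so that they entered the test through WT alone. The count, the median and the summed signal of the 14 are therefore given only as descriptions. Gata1, a transcription factor of red cell precursors, read 3.35, 2.96 and 2.87 in WT mice, all below the array median. Without Runx3 it read 4.15, 3.63 and 3.76 (difference 0.79 ± 0.17, SE, limma adjusted p = 0.0218). Gata1 entered the test through Runx3-/- alone, so that its call is likewise only a description. The anion exchanger Slc4a1 read 6.65, 5.80 and 6.08 in WT mice, against 3.36, 3.18 and 3.42 without Runx3. The carbonic anhydrase gene Car1 read 6.74, 4.74 and 6.00 against 3.26, 2.74 and 2.92. Both Slc4a1 and Car1 are among the 9 that entered the test through WT alone. Car2 and Bpgm, an enzyme of red cell glycolysis, differed by -1.70 and -0.85 (adjusted p = 0.00146 and 0.00374). The globin genes were not analysed here, and the erythroid factor gene Klf1 was on the array but below the filter in every array. The summed linear signal of the 14 ran from 348 to 564 in WT and from 181 to 191 in Runx3-/- arrays. Without Runx3-/- replicate 2 or 3 the number that passed was 5, and it was 14 with arrays centred on T cell markers.

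Of 14 erythroid markers, 11 were highest in WT replicate 1 and 11 were lowest in WT replicate 2. Of the 9 genes, 5 were highest in WT replicate 1, namely Alas2, Cpox and Fech, which fell, and Alas1 and Urod, which did not pass. The lowest WT array was replicate 3 for Alas2 and Fech and replicate 2 for Cpox. Of 19 macrophage markers tested, 18 were lower, with a summed signal from 1843 to 1977 in WT and from 304 to 456 in Runx3-/- arrays, and of 17 B cell markers 16 were lower, with sums from 1565 to 2411 and from 362 to 433. Of the 17 B cell markers, all were lowest in WT replicate 1. The summed T cell markers ran from 9777 to 11690 in WT and from 11028 to 12960 in Runx3-/- arrays, and 4 of 12 were higher. For all marker lists, the shares over all genes tested were 6.01% lower and 5.63% higher. Among the macrophage and B cell markers, 4 of the former (Mertk, Marco, Siglec1 and Cd163) and 2 of the latter (Fcer2a and Ebf1) lay below the array median in all Runx3-/- arrays and entered the test through WT alone. The same held for all 5 neutrophil and both platelet markers tested, so that their counts are descriptions too. Smaller marker lists gave 3 of 5 lower for neutrophils, 2 of 2 lower for platelets, 2 of 10 lower for dendritic cells and 1 of 6 higher for natural killer cells, the last being Gzma. Leaving out a single array moved these small counts. For neutrophils 1 passed without WT replicate 1 or any Runx3-/- replicate, for platelets 1 passed without any array other than WT replicate 3, and for dendritic cells 0 passed without Runx3-/- replicate 3. For natural killer cells 0 passed without WT replicate 1 or 2 or Runx3-/- replicate 3 and 2 passed without Runx3-/- replicate 2, and for T cells 2 passed without Runx3-/- replicate 1 and 1 without replicate 2. The part of these cells in the differences of Alas2, Cpox and Fech was not tested.

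**Figure D4:**
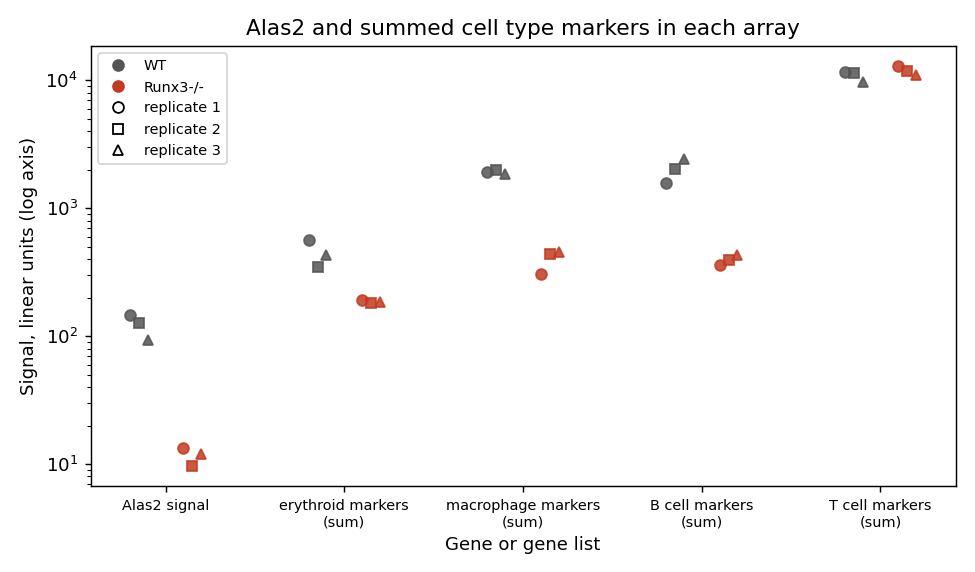
Linear signal on a log axis (vertical axis) of Alas2 and of the summed erythroid, macrophage, B cell and T cell markers (horizontal axis), with grey symbols for WT and red symbols for Runx3-/- mice and 1 symbol shape for each replicate number. The erythroid, macrophage and B cell sums are lower in all Runx3-/- arrays than in all WT arrays, whereas the T cell sums of the genotypes overlap. These lower sums include markers that entered the test through WT alone (9 of 14 for the erythroid sum), so that they are descriptions.

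The genes most like Alas2 over the 6 arrays were found by the Euclidean distance between values set to a WT mean of 0. They were the chemokine receptor Cxcr6 (distance 0.724), the B cell receptor component Cd79a (0.753), the macrophage mannose receptor Mrc1 (1.06), the erythroid Slc4a1 (1.10) and an immunoglobulin kappa variable segment (1.25). Cxcr6 read 7.68, 7.48 and 6.84 in WT mice, against 4.29, 4.12 and 4.54 without Runx3. Its order among the WT arrays was that of Alas2, as was that of Mrc1 and of the immunoglobulin segment. Cd79a had the reverse order and Slc4a1 another. Of the 5, only Slc4a1 is an erythroid marker of the list used here, and it entered the test through WT alone. The genes most like Tfrc by Pearson r over 6 arrays were Tbc1d4 (0.996), Gm5069 (0.986) and Arhgap22 (0.982), all with means between 3.28 and 3.44, close to the array median.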

How the data were processed

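Expression in splenic CD8-TC of 3 WT and 3 Runx3-/- mice was read on mouse Gene 1.0 ST arrays from Affymetrix. The values the authors deposited were log2 signals. According to the methods and the submitters' processing notes, array files were normalized in Partek Genomics Suite by RMA with a GC correction. Their versions and the build are not stated there. Groups and replicate numbers came from the sample titles.

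Probe sets with exactly 1 annotated gene (21789 of 35399) were kept when they reached the array median in at least 1 array, and the brightest represented each gene. limma (version 3.58.1, under R 4.3.3) gave two-sided tests of the differences without covariates, adjusted by the Benjamini-Hochberg method over all 9925 genes at 0.05. Errors are SD over 3 mice or the SE from limma. For ratios of Alas2 to another gene, the SE came from the spread of the 3 arrays a group, with an exact permutation test. The fit was tested on data simulated with independent noise for each gene, which is not a check of the calls in these arrays. The number of arrays limits the precision. Named genes were the 9, the lowest p in each list (up to 5 for heme and iron lists, up to 4 for markers), Runx3, and the genes nearest in pattern to Alas2 and Tfrc. Outside this rule, the CD3 and CD8 genes, Hmox2, Aco1, Ireb2, Gata1, Klf1 and the markers below the array median in all Runx3-/- arrays were named after their values were seen. Alternatives covered the filter, scaling, variance model, array weights, probe sets, a replicate block and each array left out. Promoter windows came from RefSeq (GRCm38.p6). The members and lists were chosen with earlier results of these data known.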

Additional observations from a re-analysis of the deposited data

How the results depend on the processing

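Alas2 kept its direction and its call under all 17 alternatives run for it, and its ratios to the other 8 genes kept their direction under the 9 run for them. Without moderation of variances, 1 of the 9 genes and 182 genes in all passed, Cpox (-0.79, adjusted p = 0.114) and Fech (-0.74, adjusted p = 0.168) did not, and the lists gave 0 for mitochondrial proteins, 3 for heme breakdown, 0 for iron genes, 1 for erythroid, 9 for macrophage and 8 for B cell markers and 0 for each other marker list. Fech (-0.74) also did not pass without the filter on signal (adjusted p = 0.0504). There, the mitochondrial list gave 1 and the natural killer list 0. With arrays centred on T cell markers, 1796 genes passed, Alad passed (-0.56), Uros turned (-0.020), and the lists gave 6 for mitochondrial proteins, 14 for erythroid, 5 for neutrophil, 2 for natural killer and 1 for T cell markers. Quantile normalization gave 1 mitochondrial gene, the trended robust fit 0 natural killer markers, and array weights a Tfrc difference of 0.025.

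With any 1 array left out, the number of the 9 genes that passed was between 2 and 3 and that of all genes between 620 and 922. It was 620 without WT replicate 1, 632 without Runx3-/- replicate 2 and 625 without Runx3-/- replicate 3. Fewer arrays lower the precision. Differences ranged from -0.45 to -0.24 for Alad, from -0.85 to -0.54 for Fech, from -0.090 to 0.050 for Tfrc and from -0.080 to 0.036 for Urod. The sign turned for Urod without WT replicate 1 (0.036) and for Tfrc without WT replicate 3 (0.050), Runx3-/- replicate 1 (0.00064) or Runx3-/- replicate 3 (0.016). List counts lay between 0 and 2 for mitochondrial proteins, 4 and 6 for iron genes, 5 and 9 for erythroid, 1 and 4 for neutrophil, 1 and 2 for platelet, 0 and 2 for dendritic and for natural killer, and 1 and 4 for T cell markers.

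The titles share replicate numbers, and the deviations of same-numbered arrays correlated at 0.18, 0.032 and -7.9e-05. The value of 0.18, for replicate 1, was the highest between any WT and Runx3-/- array, but not every array correlated best with its own number. With so few arrays in each genotype, these values cannot decide whether the numbers pair the mice. With the replicate block, 2 of the 9 genes and 1085 genes passed, and Fech (-0.74, adjusted p = 0.0547) did not. The cause of these changes was not tested.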
